A study of Homo sapiens with 9 samples.

Results

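Of the 6499 genes listed for doxorubicin against control in WI-38 cells, 84 were nuclear genes of oxidative phosphorylation, taken by gene symbol. The symbols were chosen with earlier results of these data known. Symbols of the NDUF, SDH, SDHAF, UQCR, UQCC, COX, COA and ATP5 families were taken along with CYC1, CYCS, SURF1, SCO1 and SCO2, and symbols with a hyphen were left out. The 84 comprised 67 subunits, 16 assembly factors and ATP5IF1, the inhibitor of ATP synthase. By complex they were 36 genes of complex I, 5 of complex II, 10 of complex III, 20 of complex IV and 13 of complex V. A list of 125 genes with these roles was drawn up, and the other 41 were not analysed here, among them NDUFS1, SDHD, UQCRC2, CYCS, ATP5F1A, ATP5F1B and ATP5F1C.

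WI-38 is a line of human fetal lung fibroblasts, and all cells were used at population doubling 30. Control cells received only DMSO, the solvent, at both steps. Doxorubicin cells received 1 μM doxorubicin, a DNA-damaging anthracycline used here to induce senescence, for 12 h and then 48 h in medium with DMSO. The comparison asked which transcripts differ between young and drug-induced senescent cells, with 3 libraries of total RNA a group, and the 3 libraries of cells given oridonin after doxorubicin were not analysed here. The labels do not say that the 3 libraries of a group came from separate cultures, so the p-values measure the spread between these libraries, which may be technical. The table does not name its unit, and values were taken as TPM, a level per transcript length scaled so that every library has an equal total, which can be set side by side between genes. All listed genes had already passed a fold change of 1.2 and a p of 0.05 on these same 6 libraries, so no test below is independent of that choice.

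Oxidative phosphorylation is carried out by 5 protein complexes of the inner mitochondrial membrane. Complexes I to IV pass electrons from NADH and succinate to oxygen, complexes I, III and IV pump protons while doing so, and complex V uses the proton gradient to make ATP. Most subunits are encoded in the nucleus and imported, a few by mitochondrial DNA, and complex II by nuclear genes alone. Assembly factors insert cofactors and hold intermediates together but are not part of the finished enzyme. In senescent fibroblasts mitochondria are known to be altered in mass and respiration.

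Promoter windows were examined because the members lie on 22 chromosomes and share no locus. RefSeq windows of 250 bases before to 50 bases after the start (GRCh38.p14) were found for 70 of the 84 members. Shown are the windows of the member with the largest log2 fold change among those with a window in each complex, and of SDHB and NDUFV3, which have the smallest among those with a window. Each is written in the direction of transcription, and capitals mark the letters TGCGCA (NRF1 core), CCGGAAG (ETS family, which includes GABPA) and AAGATGG (YY1) on either strand. NDUFA3 is at chr19:54102605-54102904, plus strand, and UQCRQ is at chr5:132866392-132866691, plus strand. SURF1 is at chr9:133356438-133356737, minus strand. ATP5IF1 is at chr1:28235874-28236173, plus strand, and SDHB at chr1:17053983-17054282, minus strand. SDHAF1 is at chr19:35994938-35995237 and NDUFV3 at chr21:42893059-42893358, both on the plus strand.
NDUFA3: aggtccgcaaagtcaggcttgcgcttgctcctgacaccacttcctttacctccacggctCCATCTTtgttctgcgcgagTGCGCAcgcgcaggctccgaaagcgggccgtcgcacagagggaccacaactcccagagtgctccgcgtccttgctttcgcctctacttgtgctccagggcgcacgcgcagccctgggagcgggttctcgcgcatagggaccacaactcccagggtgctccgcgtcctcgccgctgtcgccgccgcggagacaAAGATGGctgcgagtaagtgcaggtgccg
SDHAF1: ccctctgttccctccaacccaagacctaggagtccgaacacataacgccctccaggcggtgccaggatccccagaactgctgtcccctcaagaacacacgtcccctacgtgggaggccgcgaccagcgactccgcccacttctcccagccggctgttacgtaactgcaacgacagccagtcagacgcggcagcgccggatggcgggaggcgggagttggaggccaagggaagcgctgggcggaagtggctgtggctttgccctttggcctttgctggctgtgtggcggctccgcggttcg
UQCRQ: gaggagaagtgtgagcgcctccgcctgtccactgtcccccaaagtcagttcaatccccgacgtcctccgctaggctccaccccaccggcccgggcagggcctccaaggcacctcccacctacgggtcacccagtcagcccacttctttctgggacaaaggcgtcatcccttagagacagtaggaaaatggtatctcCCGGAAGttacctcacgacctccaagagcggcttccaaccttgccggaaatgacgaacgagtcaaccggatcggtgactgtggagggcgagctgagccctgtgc
SURF1: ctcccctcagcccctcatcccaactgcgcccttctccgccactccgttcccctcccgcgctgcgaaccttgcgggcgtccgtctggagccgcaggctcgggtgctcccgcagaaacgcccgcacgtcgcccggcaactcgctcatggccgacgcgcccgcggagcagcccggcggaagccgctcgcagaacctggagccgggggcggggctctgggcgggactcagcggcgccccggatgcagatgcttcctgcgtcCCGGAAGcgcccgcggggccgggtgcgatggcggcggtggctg
ATP5IF1: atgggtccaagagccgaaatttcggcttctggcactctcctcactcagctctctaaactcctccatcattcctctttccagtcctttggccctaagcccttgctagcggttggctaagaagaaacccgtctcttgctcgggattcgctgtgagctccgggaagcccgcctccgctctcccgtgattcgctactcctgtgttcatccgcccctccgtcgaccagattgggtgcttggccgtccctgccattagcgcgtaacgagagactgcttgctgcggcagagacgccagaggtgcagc
SDHB: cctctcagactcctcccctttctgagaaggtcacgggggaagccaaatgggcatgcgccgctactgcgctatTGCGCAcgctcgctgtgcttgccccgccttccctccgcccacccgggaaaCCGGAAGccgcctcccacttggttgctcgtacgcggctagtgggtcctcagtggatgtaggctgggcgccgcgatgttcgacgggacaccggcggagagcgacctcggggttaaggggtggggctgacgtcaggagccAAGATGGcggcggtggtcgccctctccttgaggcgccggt
NDUFV3: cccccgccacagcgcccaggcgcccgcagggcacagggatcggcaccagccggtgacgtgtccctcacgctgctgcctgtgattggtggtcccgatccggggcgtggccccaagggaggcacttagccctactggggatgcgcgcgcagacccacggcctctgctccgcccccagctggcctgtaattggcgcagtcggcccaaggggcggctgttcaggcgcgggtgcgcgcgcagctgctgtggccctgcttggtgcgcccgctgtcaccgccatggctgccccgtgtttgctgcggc

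The NDUFA3 window held AAGATGG as its reverse complement 191 bases before the start, TGCGCA 171 bases before it, and AAGATGG again 21 bases after it. SDHB held 3 kinds of match, TGCGCA 178 bases before, CCGGAAG 128 bases before and AAGATGG 10 bases after the start. UQCRQ and SURF1 each held CCGGAAG, 54 bases before and 7 bases after the start, and the windows of SDHAF1, ATP5IF1 and NDUFV3 held no match. Of the 82 member windows, 29.3% held TGCGCA against 8.24% of all 35116 windows, 32.9% held CCGGAAG against 10.3%, and 23.2% held AAGATGG against 5.84%. The GC box GGGCGG stood in 67.1% against 45.0%, and TATAAA in 7.32% against 11.5%. The 35116 windows were not limited to genes tested here or matched in base composition, and shares are of windows, not genes. Whether the members differ from expressed genes in these letters was not tested. TGCGCA reads the same on both strands, CCGGAAG can run into AAGATGG over the letters AAG, and a match is a description of letters and not of binding. The median log2 fold change was 0.31 in the 22 genes with TGCGCA and 0.31 in the 48 without, 0.33 and 0.29 with and without CCGGAAG, and 0.24 and 0.34 with and without AAGATGG.

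Compared with the control group, 71 of the 84 members were higher after doxorubicin at an adjusted p under 0.05, none was lower, and 13 did not pass. Among all 5721 genes tested 76.9% were called, 28.2% higher and 48.7% lower. The median log2 fold change on the log2(TPM + 1) scale was 0.29 over the members (range -0.01 to 0.86) and -0.28 over all genes tested. Values were above 0 for 83 of the 84 members, beside 46.4% of all genes tested. The members' median lay 0.57 above the all-gene median. The rises were modest, and with a fold change over 1.2 and an unadjusted p under 0.05 the count was 49 of 84, beside 23.4% of all genes tested called higher and 49.0% called lower this way. The groups did not overlap, with every doxorubicin library above every control library, in 75 members, beside 32.3% of all genes tested, and in none did every doxorubicin library lie below every control library, beside 48.4%. For these 75 the exact permutation test of 3 against 3 gave p = 0.1, which is the smallest p this design allows. The ratio of the 2 mean TPM values lay within 1.2-fold for 34 members although each is listed as past that fold, so the deposited fold changes were not the ratios of these means.

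**Figure D1:**
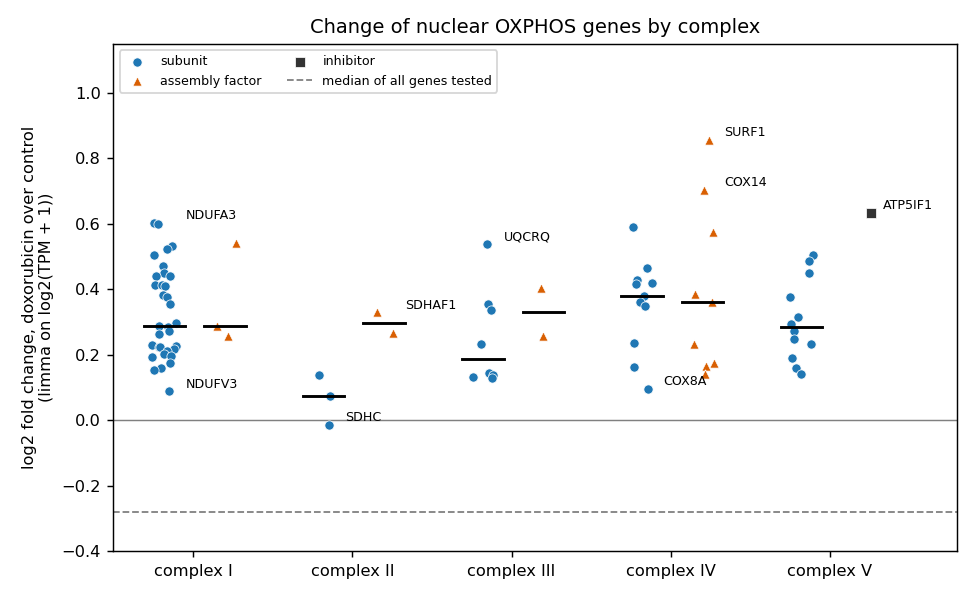
Log2 fold change of each of the 84 members (doxorubicin over control, limma on log2(TPM + 1)) by complex, with subunits, assembly factors and the inhibitor as separate symbols, a black bar at the median of each subunit and assembly factor group, and a dashed line at the median of all genes tested (-0.28). All points but SDHC (-0.01) lie above 0, and SURF1 (0.86) lies highest.

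The summed TPM of the 84 members was 22085, 21743 and 22469 in the control libraries and 28116, 29008 and 26264 in the doxorubicin libraries. All 3 doxorubicin libraries lay above the controls, and the mean was 25.8% higher. Doxorubicin replicate 3 was the lowest of its group for 67 of the 84 members and replicate 2 the highest for 52. Library correlations over the tested genes were 0.992 to 0.995 within groups and 0.935 to 0.958 between them. If the values are TPM, the genes of the table together made up 54.3 to 54.8% of the total in the control group. In the doxorubicin group they made up 58.6 to 60.0%, and depth cannot be read from TPM. Under quantile normalization 58 members were called higher, and after centring each library on its median all 84 were. Calls over all genes were 1611 higher and 2788 lower as analysed, 2162 and 1737 after quantile normalization, and 2611 and 1938 after centring. TPM are shares of the RNA of a bulk sample, in which fewer cells of a type and less RNA per cell cannot be told apart.

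**Figure D2:**
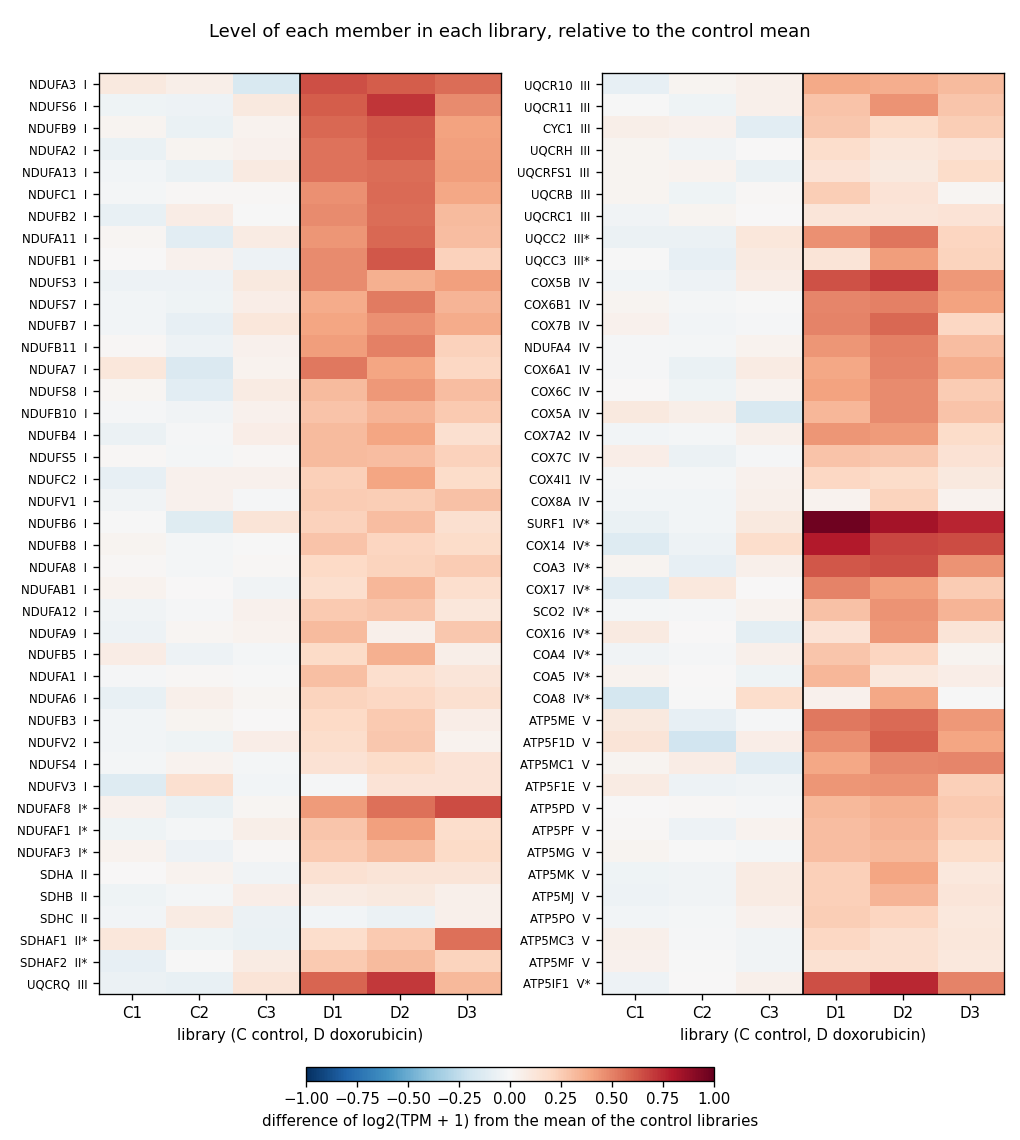
Difference of log2(TPM + 1) from the control mean for every member in the 3 control (C1 to C3) and 3 doxorubicin (D1 to D3) libraries, ordered within complex by class and log2 fold change, and an asterisk marks assembly factors and the inhibitor. The doxorubicin columns are red for nearly all members, with D3 paler than D1 and D2 in most.

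Complex I, the NADH dehydrogenase, had 34 of 36 members higher, with a median log2 fold change of 0.29. Its 33 subunits summed to 8401, 8340 and 8682 TPM in control and 11038, 11423 and 10229 TPM in doxorubicin libraries, 28.6% higher in the mean with no overlap. The largest changes were in NDUFA3, a small accessory subunit of the membrane arm (ENSG00000170906, chr19:54102728-54109257 on GRCh38), and NDUFS6, an accessory subunit of the matrix arm that binds zinc (ENSG00000145494, chr5:1801400-1816605). NDUFA3 was at 122.8, 119.5 and 102.8 TPM in control and 179.8, 175.2 and 169.4 TPM in doxorubicin libraries. The groups lay well apart, and the log2 fold change was 0.60 ± 0.07 (SE, adjusted p 7.79e-05). NDUFS6 was at 371.9, 369.2 and 409.7 TPM in control and 582.6, 630.9 and 532.3 TPM in doxorubicin libraries, again with no overlap (log2 fold change 0.60, adjusted p 6.15e-05). NDUFA3 overlaps TFPT in the annotation, and whether reads were counted by strand is not stated.

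The 3 most abundant complex I subunits in control cells, NDUFS5, NDUFA13 and NDUFA11, are all supernumerary, meaning that they have no part in electron transfer itself. NDUFS5 averaged 851.4 ± 11.3 TPM in control and 1037 ± 33.1 TPM after doxorubicin (SD, n = 3), and its log2 fold change was 0.28 (adjusted p 0.000538). NDUFA13, a membrane arm subunit also known as GRIM-19, averaged 727.1 ± 41.7 and 1032 ± 55.1 TPM (log2 fold change 0.50, adjusted p 6.56e-05). NDUFA11, a membrane arm subunit, averaged 656.2 ± 42.8 and 892.6 ± 81.4 TPM (log2 fold change 0.44, adjusted p 0.000522). Of the 5 core subunits listed, which are conserved from bacteria to humans, 4 were higher (median 0.35), and of the 28 supernumerary subunits 27 were (median 0.29). All 19 membrane arm subunits listed were higher (median 0.30), against 11 of 13 matrix arm subunits (median 0.26).

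In complex I 2 subunits did not pass. NDUFV3, an accessory subunit of the NADH-oxidizing tip, was at 23.2, 28.5 and 24.9 TPM in control and 25.2, 28.0 and 28.1 TPM in doxorubicin libraries. The groups overlapped, and its log2 fold change was 0.09 (adjusted p 0.409). NDUFV2, which holds an iron-sulfur cluster in the same tip, was at 188.1, 186.7 and 201.4 TPM in control and 217.1, 231.4 and 196.6 TPM in doxorubicin libraries, where replicate 3 fell among the controls (log2 fold change 0.16, adjusted p 0.0547). NDUFV1, the flavin-binding subunit of the tip, was higher without overlap (log2 fold change 0.26, adjusted p 0.00199). NDUFB5, a membrane arm subunit, was called higher at an adjusted p of 0.0479 although its lowest doxorubicin value of 66.0 TPM lay under its highest control value of 66.7 TPM. NDUFS4, an accessory subunit whose loss causes Leigh syndrome, had the smallest log2 fold change after NDUFV3, from 152.8 ± 3.58 to 170.1 ± 3.31 TPM (log2 fold change 0.15, adjusted p 0.0246).

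Complex II, the succinate dehydrogenase that joins the respiratory chain to the citric acid cycle, had the lowest median of the complexes, 0.14, with 2 of 5 members higher. None of its 3 listed subunits passed, and their summed TPM was 335, 350 and 338 in control and 354, 350 and 358 in doxorubicin libraries, 3.91% higher in the mean. SDHA, the flavoprotein subunit, was at 92.2, 94.2 and 89.9 TPM in control and 102.2, 101.0 and 100.9 TPM in doxorubicin libraries, without overlap but with an adjusted p of 0.0504 (log2 fold change 0.14). SDHB, the iron-sulfur subunit, was at 100.7, 102.4 and 109.2 TPM in control and 110.0, 111.1 and 107.5 TPM in doxorubicin libraries, with overlap (log2 fold change 0.07, adjusted p 0.268). SDHC, a membrane anchor (ENSG00000143252, chr1:161314257-161375340), was at 142.0, 153.3 and 138.5 TPM in control and 141.9, 138.3 and 149.4 TPM in doxorubicin libraries. Its values were interleaved, and the log2 fold change was -0.01 ± 0.06 (SE, adjusted p 0.84). This value turned to 0.25 (adjusted p 0.00713) when each library was centred on its median. After that centring all 5 members of complex II were called higher, beside 45.6% of all genes tested, and their median was 0.40. Under quantile normalization 2 were called and the median was 0.086, so the calls of complex II depend on the scale. The sum of complex I subunits over that of complex II subunits was 25.1, 23.8 and 25.7 in control and 31.2, 32.6 and 28.6 in doxorubicin libraries, higher in every doxorubicin library. Complex II is represented by few genes, and the difference between complexes was not tested.

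The 2 complex II assembly factors listed did pass. SDHAF2, needed to attach FAD to SDHA, was at 58.6, 62.2 and 66.0 TPM in control and 74.7, 77.8 and 72.7 TPM in doxorubicin libraries (log2 fold change 0.27, adjusted p 0.00614). SDHAF1, needed to insert iron-sulfur clusters into SDHB, was the member with the lowest level, at 8.0, 7.07 and 6.97 TPM in control and 8.43, 8.97 and 11.2 TPM in doxorubicin libraries. Its groups were narrowly apart (log2 fold change 0.33, adjusted p 0.038). Without control replicate 2, control replicate 3 or doxorubicin replicate 3 the count for complex II was 1 instead of 2.

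Complex III, which passes electrons from ubiquinol to cytochrome c, had 7 of 10 members higher, with a median of 0.24. Its 8 subunits summed to 1916, 1892 and 1944 TPM in control and 2315, 2298 and 2172 TPM in doxorubicin libraries, 18.0% higher in the mean. The largest change was in UQCRQ, a small supernumerary subunit (ENSG00000164405, chr5:132866560-132868031, overlapping GDF9). UQCRQ was at 225.5, 222.5 and 256.4 TPM in control and 350.7, 383.7 and 294.0 TPM in doxorubicin libraries. Its lowest doxorubicin value, replicate 3, still lay above all controls (log2 fold change 0.54, adjusted p 0.000824). UQCRH, the acidic hinge subunit and the most abundant of the complex, averaged 597.5 ± 12.8 and 660.3 ± 14.9 TPM (log2 fold change 0.14, adjusted p 0.0196), and under quantile normalization its log2 fold change was -0.10.

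UQCRB, which binds near the ubiquinone site, was at 335.7, 319.9 and 331.0 TPM in control and 389.7, 361.4 and 333.1 TPM in doxorubicin libraries. Doxorubicin replicate 3 lay among the controls, and the change did not pass (log2 fold change 0.13, adjusted p 0.0767). UQCRC1, a core structural subunit, averaged 252.1 ± 5.64 and 275.7 ± 1.48 TPM (log2 fold change 0.13, adjusted p 0.0371). The electron-carrying subunits differed in their calls. CYC1, cytochrome c1, passed (log2 fold change 0.23, adjusted p 0.00785), and UQCRFS1, the Rieske iron-sulfur protein, did not (log2 fold change 0.14, adjusted p 0.106). The difference between them was not tested. UQCC2, an assembly factor for cytochrome b, was at 57.7, 57.9 and 65.3 TPM in control and 83.2, 87.8 and 70.1 TPM in doxorubicin libraries, without overlap (log2 fold change 0.40, adjusted p 0.00302).

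Complex IV, the cytochrome c oxidase, had 15 of 20 members higher, and with a median of 0.37 the highest median of the 5 complexes. Its 11 subunits, counting NDUFA4, summed to 4895, 4789 and 4985 TPM in control and 6142, 6396 and 5734 TPM in doxorubicin libraries, 24.6% higher in the mean. COX5B, a peripheral subunit on the matrix side that binds zinc, had the largest change among them, from 236.4 ± 11.5 to 357.5 ± 33.7 TPM (log2 fold change 0.59, adjusted p 8.65e-05). Of the genes that have tissue or condition specific isoforms, the widely expressed ones COX4I1, COX6A1, COX6B1, COX7A2 and NDUFA4 were listed, and their counterparts were not analysed here. COX6B1, which faces the intermembrane space, was at 717.6, 696.0 and 701.8 TPM in control and 989.9, 1001 and 934.1 TPM in doxorubicin libraries. These groups lay far apart relative to their spread (log2 fold change 0.47, adjusted p 2.98e-05). COX6A1, NDUFA4 and COX7A2 rose by 0.42, 0.42 and 0.35 on the log2 scale (adjusted p 0.000183, 0.000369 and 0.00156). COX4I1, which takes part in the early steps of assembly, had the highest level of the complex, 868.3 ± 20.6 TPM in control, and a smaller rise of 0.16 (adjusted p 0.0132).

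COX8A, a small subunit at a similarly high level, was the complex IV subunit that did not pass. It was at 794.0, 793.0 and 834.7 TPM in control and 825.8, 939.9 and 827.5 TPM in doxorubicin libraries. Only doxorubicin replicate 2 lay above all controls, and the log2 fold change of 0.10 (adjusted p 0.162) was -0.11 under quantile normalization.

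Among the complex IV assembly factors were the 2 largest changes of all members. SURF1, which acts early in assembly and is mutated in a form of Leigh syndrome (ENSG00000148290, chr9:133351755-133356676), was at 20.8, 21.4 and 23.4 TPM in control and 43.9, 39.7 and 37.7 TPM in doxorubicin libraries. Every doxorubicin library lay far above every control library, the ratio of means was 1.85, and the log2 fold change was 0.86 ± 0.09 (SE, adjusted p 2.8e-05). SURF1 and its neighbour SURF2 overlap in the annotation. COX14, which acts with COA3 in the synthesis and early assembly of the MT-CO1 subunit (ENSG00000178449, chr12:50111979-50120457), was at 92.6, 98.1 and 114.7 TPM in control and 176.6, 161.9 and 159.7 TPM in doxorubicin libraries. All doxorubicin libraries lay above all controls, and the log2 fold change was 0.70 (adjusted p 6.14e-05).

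Of the same early step, COA3 averaged 71.7 ± 3.52 TPM in control and 107.4 ± 7.89 TPM after doxorubicin (log2 fold change 0.57, adjusted p 0.000107). COX17, the copper chaperone of the intermembrane space, was at 101.2, 117.3 and 109.5 TPM in control and 154.6, 145.1 and 130.1 TPM in doxorubicin libraries (log2 fold change 0.39, adjusted p 0.00177). SCO2, which helps to insert copper into the MT-CO2 subunit, averaged 26.1 ± 0.562 and 33.8 ± 1.94 TPM (log2 fold change 0.36, adjusted p 0.00268). The entry used overlaps TYMP and another coding gene entry with the symbol SCO2, and how reads were split between them is not stated. COX16, COA4, COA5 and COA8 did not pass, with log2 fold changes of 0.23, 0.17, 0.17 and 0.14 and adjusted p of 0.0507, 0.0518, 0.179 and 0.297. COA4 was at 99.9, 101.5 and 105.9 TPM in control and 124.5, 118.8 and 104.5 TPM in doxorubicin libraries, and COA8 at 29.9, 33.7 and 38.2 TPM and 34.8, 44.5 and 33.6 TPM. In both the groups overlapped.

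Complex V, the ATP synthase, had all 13 listed members higher, with a median of 0.30 and no overlap in any. Its 12 subunits summed to 5217, 5021 and 5107 TPM in control and 6314, 6507 and 5980 TPM in doxorubicin libraries, 22.5% higher in the mean. Under quantile normalization 8 of the 13 were called. ATP5IF1, which blocks ATP hydrolysis when the membrane potential falls (ENSG00000130770, chr1:28236109-28246906), had the largest log2 fold change of the complex. ATP5IF1 was at 483.2, 502.9 and 518.1 TPM in control and 785.1, 848.1 and 708.9 TPM in doxorubicin libraries. The groups lay far apart, and the log2 fold change was 0.63 ± 0.07 (SE, adjusted p 3.14e-05). As a ratio to the summed TPM of the 12 listed subunits ATP5IF1 was at 9.26, 10.0 and 10.1% in control and 12.4, 13 and 11.9% in doxorubicin libraries, higher in every doxorubicin library.

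The subunits with the highest levels of all members were ATP5MF and ATP5ME, small membrane subunits that lie where ATP synthase forms dimers. ATP5ME was at 984.0, 869.4 and 912.2 TPM in control and 1324, 1360 and 1242 TPM in doxorubicin libraries, with no overlap (log2 fold change 0.51, adjusted p 5.9e-05). ATP5MF was at 1336, 1296 and 1268 TPM in control and 1446, 1454 and 1398 TPM in doxorubicin libraries, also without overlap but with the smallest log2 fold change of the complex (0.14, adjusted p 0.0184). ATP5MF shares its locus with PTCD1, a read-through gene and CPSF4, and its value may include their reads. ATP5MK, another small membrane subunit, averaged 647.1 ± 31.2 and 770.4 ± 78.8 TPM (log2 fold change 0.25, adjusted p 0.0114).

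ATP5MC1 and ATP5MC3 encode the same mature protein, subunit c of the rotor ring, from different precursors. ATP5MC1 was at 266.3, 276.0 and 243.1 TPM in control and 342.1, 364.9 and 366.3 TPM in doxorubicin libraries (log2 fold change 0.45, adjusted p 0.000161). ATP5MC3 was at 296.0, 283.8 and 279.2 TPM in control and 330.9, 319.1 and 309.2 TPM in doxorubicin libraries (log2 fold change 0.16, adjusted p 0.0201). The ratio of ATP5MC1 to ATP5MC3 was 0.900, 0.973 and 0.870 in control and 1.03, 1.14 and 1.18 in doxorubicin libraries, so ATP5MC1 was the lower of the pair in every control library and the higher in every doxorubicin library. Their coding sequences are alike and reads could be split between them. Of the catalytic head and central stalk only the central stalk subunits ATP5F1D and ATP5F1E were listed, with log2 fold changes of 0.49 and 0.38. The 10 membrane and peripheral stalk subunits had a median of 0.26.

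**Figure D3:**
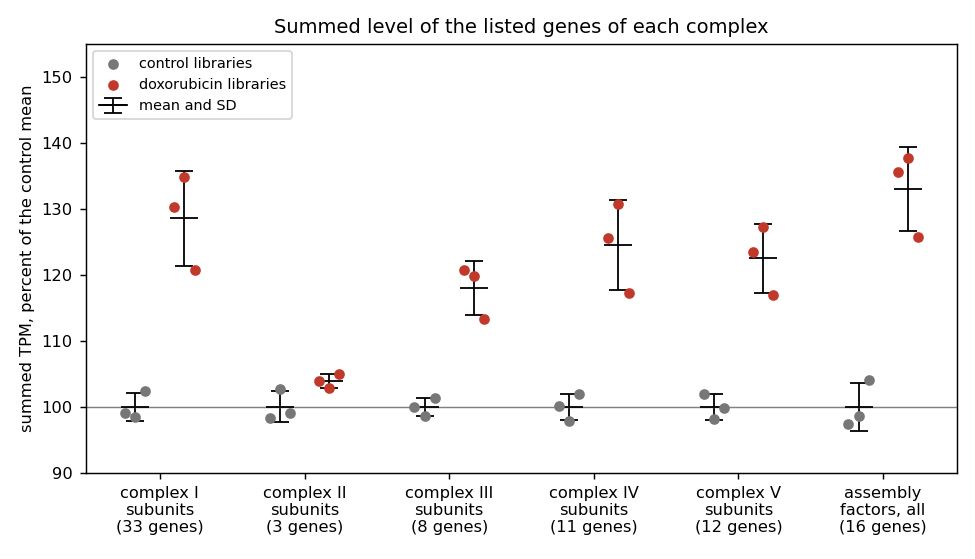
Summed TPM of the listed subunits of each complex, and of all 16 assembly factors, in each library as percent of the control mean (the axis starts at 90), with points for libraries and bars for mean and SD of 3. Complex II subunits are 3.91% higher after doxorubicin, complex I subunits 28.6% and assembly factors 33.0%.

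Subunits and assembly factors had similar medians. Of 67 subunits 59 were higher (median 0.29, range -0.01 to 0.60) and of 16 assembly factors 11 were (median 0.31, range 0.14 to 0.86). The assembly factors summed to 838, 849 and 896 TPM in control and 1168, 1185 and 1083 TPM in doxorubicin libraries, 33.0% higher in the mean. The difference between the classes was not tested. Under quantile normalization the medians were 0.21 for subunits and 0.42 for assembly factors, so their distance depends on the scale. The 3 assembly factors of complex I that were listed, of 8, all passed. NDUFAF8, which stabilizes the assembly factor NDUFAF5, was at 78.5, 72.5 and 77.3 TPM in control and 102.3, 111.9 and 119.9 TPM in doxorubicin libraries, and here replicate 3 was the highest (log2 fold change 0.54, adjusted p 0.000148). NDUFAF1, which acts on the membrane arm, rose by 0.29 on the log2 scale (adjusted p 0.0165), and NDUFAF3, which acts on the ubiquinone-binding module, by 0.26 (adjusted p 0.00392).

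The median genomic span of the members was 9460.5 bp (range 1117 to 122708 bp) against 32497 bp over the tested genes, and the median length of their coding transcripts was 688 against 1734 bases. Across the 84 members the log2 fold change had a Spearman correlation of -0.313 with span, and across all 5700 tested genes with a position it was -0.441. For coding transcript length the values were -0.195 and -0.323, and for the control level 0.0604 over the members. These are descriptions across genes of the same 6 libraries, and genes are not independent replicates. SDHC (61084 bp), SDHA (38460 bp) and SDHB (35449 bp) are long among the members, and SDHAF1 (1117 bp) is the shortest. The part of span in the members' change was not tested.

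**Figure D4:**
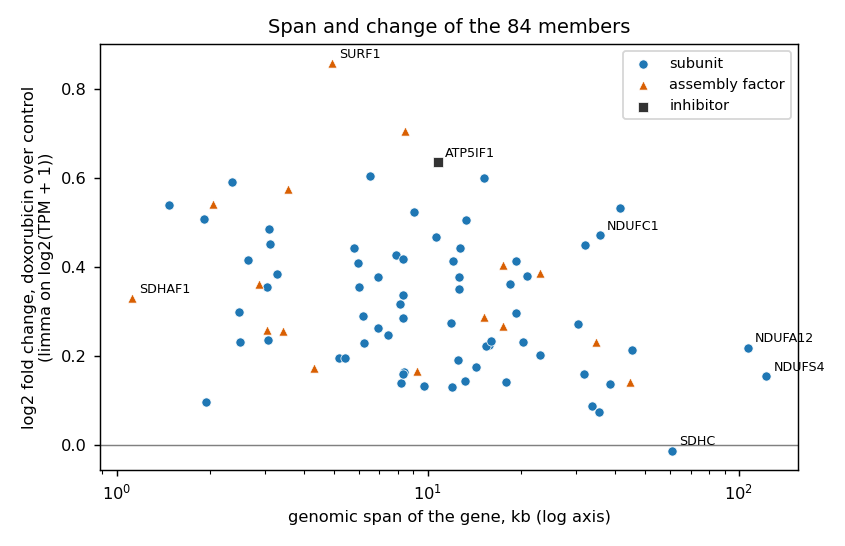
Genomic span (kb, log axis) against log2 fold change (doxorubicin over control, limma on log2(TPM + 1)) of the 84 members, with symbols for class. Short and long members both lie above 0, the Spearman correlation is -0.313, and SDHC lies lowest.

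Related mitochondrial genes were described from further lists, whose counts stand beside 28.2% higher and 48.7% lower over all genes tested. Of 29 other assembly and supercomplex factors 10 were listed, of which 7 were higher and none lower (median 0.38). PET100, an assembly factor of complex IV, had the largest rise, from 86.8 ± 9.30 to 135.8 ± 26.5 TPM (log2 fold change 0.63, adjusted p 0.00335), and LYRM7, a complex III factor, had the lowest value without passing (-0.24, adjusted p 0.258). Of 13 genes of coenzyme Q synthesis 6 were listed, with 3 higher and 1 lower. COQ8A rose from 3.39 to 5.36 TPM (log2 fold change 0.54), and COQ2, the enzyme that joins the isoprenoid tail to the ring, was lower at 9.87 and 5.85 TPM (log2 fold change -0.67, adjusted p 0.00058). Of 18 genes of the citric acid cycle and pyruvate dehydrogenase 9 were listed, with 3 higher and 4 lower, shares close to those over all genes. DLAT, a core enzyme of pyruvate dehydrogenase, fell from 18.3 to 10.7 TPM (log2 fold change -0.73), and MDH2, malate dehydrogenase, rose from 166.9 to 192.2 TPM (log2 fold change 0.20). CS, citrate synthase, named after its values were seen, was at 94.2, 102.5 and 89.7 TPM in control and 56.2, 52.5 and 64.0 TPM in doxorubicin libraries (log2 fold change -0.72).

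Of 12 regulators of mitochondrial biogenesis 6 were listed, with none higher, beside 28.2% of all genes tested. Of the 6, 3 were lower, near the all-gene share of 48.7%, and the median was -0.37 beside -0.28. After quantile normalization 1 was higher and 1 lower (median -0.10), and after centring 1 was higher and 3 lower (median -0.12). Without doxorubicin replicate 3 the count lower was 5, and with a mean of at least 5 TPM it was 1 of 4. NRF1, a factor that binds the TGCGCA core marked above, was at 7.82, 5.34 and 4.39 TPM in control and 3.10, 3.02 and 3.53 TPM in doxorubicin libraries, without overlap (log2 fold change -0.67, adjusted p 0.00569). GABPA and GABPB1, the subunits of an ETS factor, were named after their values were seen and had log2 fold changes of -0.52 and -0.58. Under quantile normalization the values of NRF1, GABPA and GABPB1 were -0.29, -0.13 and -0.28, and NRF1 (adjusted p 0.137) and GABPA (adjusted p 0.218) no longer passed. After centring they were -0.41, -0.26 and -0.32, and all 3 passed. YY1, PPRC1 and ESRRA did not pass, with log2 fold changes of -0.14, -0.23 and 0.14.

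Of the 13 subunits encoded by mitochondrial DNA 11 were listed, with 8 higher and 1 lower (median 0.18). Their summed TPM was 83015 to 86438 in control and 94476 to 95444 in doxorubicin libraries. Under quantile normalization 3 were higher and 3 lower, with a median of -0.00. That setting gives each rank the same value in every library, so genes at the top can change little except by trading ranks. MT-CO1 (-0.11) and MT-CO3 (0.11) had mirror values there, and no direction can be read from it for these genes. After centring 10 were higher and 1 lower, with a median of 0.44. MT-ND6, a complex I subunit, rose from 3188 ± 271 to 4625 ± 337 TPM (log2 fold change 0.54, adjusted p 0.00015). MT-ND4L, another complex I subunit, was at 6535, 7669 and 6362 TPM in control and 3941, 2920 and 5072 TPM in doxorubicin libraries (log2 fold change -0.82, adjusted p 0.015). This call was lost without control replicate 2 and with the replicate number as a block, which left 0 lower. It overlaps MT-ND4, and how reads were split is not stated.

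**Figure D5:**
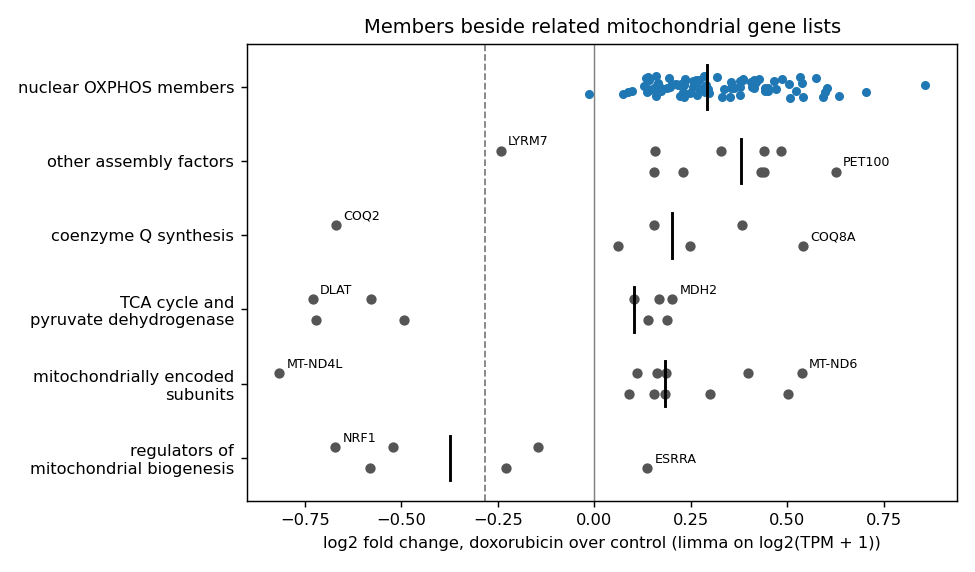
Log2 fold change (doxorubicin over control, limma on log2(TPM + 1)) of the members and of 5 related lists, each point a gene, with a black bar at the median and a dashed line at the median of all genes tested (-0.28). The members have a median of 0.29 and the regulators of mitochondrial biogenesis one of -0.37.

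Of 10 p53 targets, all of them listed, 8 were higher and none lower, beside 28.2% higher and 48.7% lower over all genes tested. These targets were chosen with earlier results of these data known, so the counts are not an independent check of the treatment. CDKN1A, the cell cycle inhibitor p21, was at 697.1, 708.8 and 683.5 TPM in control and 1502, 1466 and 1399 TPM in doxorubicin libraries (log2 fold change 1.06, adjusted p 6.56e-08), and ZMAT3 and FAS did not pass. Of 12 fibroblast markers 6 were listed and all 6 were lower, beside 48.7% of all genes tested. Their summed levels were 5937 to 6294 TPM in control and 3981 to 4677 TPM in doxorubicin libraries. The label of a fibroblast line was checked on these 6 alone, and they were at these levels in every library. COL3A1, a fibrillar collagen, had the largest fall (log2 fold change -1.48). Of 6 epithelial markers KRT8 and KRT18 were listed, summing to 33.8 to 36.5 TPM in control and 48.2 to 51.3 TPM in doxorubicin libraries, and KRT18 had a log2 fold change of 0.60. Of 6 endothelial and blood cell markers CD68 and PTPRC were, summing to 45.0 to 49.0 TPM in control and 87.4 to 93.7 TPM in doxorubicin libraries, nearly all of it from CD68 (log2 fold change 0.94). The defining markers EPCAM, PECAM1 and HBB were not analysed here, and PTPRC was near 0. The part of these shifts in the members' change was not tested.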

How the data were processed

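Total RNA of WI-38 cells was sequenced by the authors from both ends over 150 bp. The submitters' processing notes list CASAVA, HISAT2, StringTie, RSEM, DESeq2 and edgeR, without role, order or version, and a mouse build (GRCm38), while the identifiers are human Ensembl genes. The build, annotation and strand setting behind the values are not given in the sources used here.

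The table deposited by the authors holds, for every listed gene, a number in each library whose unit it leaves unnamed. It was taken as TPM because the listed genes sum to less than the total of a TPM library in all 6. Further columns made by the authors hold group means in the same unnamed unit, a fold change (ratio and log2) and p-values before and after adjustment. The fold changes and p-values served only to check that all 6499 genes pass a fold change of 1.2 and a p of 0.05. Read depth cannot be recovered from TPM, and precision rests on the replicates. There were 0 unused per-sample columns. The design foresaw either counts or normalized values, so the fit written for normalized values applied.

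log2(TPM + 1) was fitted per gene by limma 3.58.1 in R 4.3.3, using eBayes (trend and robust), on 5721 genes averaging 1 TPM or more over the 6 libraries. Tests were two-sided, adjusted after Benjamini-Hochberg over these genes, and called at an adjusted p under 0.05. All 84 members passed this filter. The script was tested on simulated data. Tables were made with Python 3.11.15, pandas 2.3.3 and SciPy 1.17.1. GENCODE release 29 (GRCh38) gave positions and overlaps by Ensembl identifier, for 6462 of 6499 genes and all members. In it 42 members overlap another coding gene. NDUFC2-KCTD14, a read-through gene that overlaps NDUFC2, was left out by its hyphen.

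Genes named were, per complex, the 3 subunits with the highest control level, the 2 largest and 2 smallest log2 fold changes, members below 0 or with overlapping groups, assembly factors past the threshold, isoform sets, ATP5IF1, CDKN1A, and the largest rise and fall of each other list. Further members were named after their values were seen. Members and lists were chosen with earlier results of these data known. Alternatives were a pseudocount of 0.1, no filter or a mean of at least 5 TPM, quantile normalization, median centring, eBayes without trend and robust, a replicate block, leaving out each library, and a fold change of 1.2 with an unadjusted p of 0.05.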

Additional observations from a re-analysis of the deposited data

How the results depend on the processing

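Of the 84 members, 71 were called higher as analysed, 72 with a pseudocount of 0.1, 71 with no filter, 73 with a mean of at least 5 TPM, 60 without trend and robust, and 59 to 72 with 1 library left out (59 without doxorubicin replicate 1). None was called lower under any of these. The share of all genes tested called higher was 28.2% as analysed and 28.0% with a pseudocount of 0.1. It was 29.1% with no filter, 32.0% with a mean of at least 5 TPM and 26.1% without trend and robust. With 1 library left out it was 23.4 to 27.2%, after centring 45.6% and after quantile normalization 37.8%. Median centring moved the median log2 fold change to 0.55 over all members, 0.55 for subunits, 0.57 for assembly factors, 0.55 for complex I, 0.40 for complex II, where all 5 members were called, 0.50 for complex III, 0.63 for complex IV and 0.55 for complex V. Quantile normalization moved it to 0.21 for subunits, 0.42 for assembly factors, 0.23 for complex I, 0.086 for complex II and 0.19 for complex V, where 8 members were called. With a fold change over 1.2 and an unadjusted p under 0.05 the counts were 38 subunits, 22 members of complex I, 4 of complex III and 8 of complex V. Of all genes tested 23.4% were called higher this way. With 1 library left out, complex II had 1 to 2 members called and a median of 0.12 to 0.15. Quantile normalization turned the sign of COX8A (-0.11), NDUFA1 (-0.069) and UQCRH (-0.10). SDHC turned to 0.25 after centring, and with 1 library left out it lay between -0.044 (without doxorubicin replicate 3) and 0.029 (without control replicate 2), turning also without doxorubicin replicate 2 (0.011). The cause was not tested. By construction, centring removes the shift of the all-gene median (-0.28).

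With the replicate block 61 members were called, and 1 of complex II. The deviations of same-numbered libraries correlated at -0.0627, -0.193 and -0.230, and those of differently numbered libraries at -0.00465 to 0.190. Deviations within a group of 3 sum to 0, so these values cannot show whether same-numbered libraries share a culture or batch. The absence of read depth and the prior selection of the listed genes limit all of these values, and low-level members such as SDHAF1 are the least precise.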

Other observations

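NDUFC2-KCTD14, the read-through gene left out of the members, was at 8.06, 3.85 and 6.04 TPM in control and 9.84, 8.49 and 14.5 TPM in doxorubicin libraries, with a log2 fold change of 0.79 (limma, adjusted p 0.0141). NDUFC2, whose reads it may share, averaged 398.9 ± 20.0 TPM in control and 482.4 ± 36.3 TPM after doxorubicin (SD, n = 3). GDF15, a secreted stress cytokine and p53 target, had the largest rise among the p53 targets listed, from 44.6 ± 2.28 to 127.7 ± 10.7 TPM, and was higher in 3 of 3 doxorubicin libraries.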
